A study of Mus musculus with 12 samples.

Results

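After DNA damage, 231 places carried a listed peak of H3K4me3 (trimethylated lysine 4 of histone H3) in both wild-type and lincRNA-p21 knockout fibroblasts, and no such peak in either genotype without damage. They were chosen as peaks of the wild-type (WT) doxorubicin list that overlapped a peak of the knockout (KO) doxorubicin list by at least 1 bp and overlapped no peak of the WT mock or KO mock list. They make up 231 of the 16477 H3K4me3 peaks of the WT doxorubicin list and are called shared gains here, where "gain" means that a peak is listed and says nothing of a test. They were selected on presence in the 4 H3K4me3 lists, so every H3K4me3 value below is a description. H3K27me3 was not used in the choice.

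The cells were primary fibroblasts from mouse embryos (MEFs) with a mixed 129/B6 hybrid background, either wild type (lincRNA-p21+/+) or knockout (lincRNA-p21-/-). Each genotype was mock treated or kept for 24 h in doxorubicin. The labels give 0.5 mM, and whether millimolar was meant could not be checked. Chromatin immunoprecipitation with sequencing (ChIP-seq) was done for H3K4me3 and H3K27me3 (trimethylated lysine 27) in each of the 4 conditions, with 1 library per mark and condition. The 4 input libraries were not analysed here. How many embryos or cultures stood behind a library, and how the knockout allele was built, are not given in the sources used here.

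H3K4me3 is laid down by the SET1 and MLL methyltransferase complexes and marks the starts of active or poised genes. Weak, narrow H3K4me3 is also found at some enhancers. H3K27me3 is the product of Polycomb repressive complex 2, and places with both marks are called bivalent and often lie at developmental genes that are kept silent but ready. Doxorubicin poisons topoisomerase II and breaks DNA, which activates the transcription factor p53. LincRNA-p21 is a long noncoding RNA transcribed under p53 beside the cell cycle inhibitor gene Cdkn1a (p21). The comparison therefore asked which H3K4me3 places appeared after damage whether or not that RNA was present.

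Each library was seen only through its peak list, in which a peak has a position and a score, the negative log10 of the authors' p-value times 10. The 4 H3K4me3 lists held 14326 to 16477 peaks with median scores of 1162 to 2141, and the lowest listed score in any list was 80.01. Read depth is unknown, since the lists carry no read counts. With 1 library per condition, no difference between conditions has a replicate check, and a difference in depth or enrichment between libraries cannot be told apart from a difference in the mark. Intervals below are 95% Clopper-Pearson intervals for shares and the matching order-statistic intervals for medians. They cover counting error over peaks only.

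Shared gains were a minority of the peaks that each doxorubicin list had without a mock peak. Of all WT doxorubicin peaks, 8.25% had no WT mock peak, 7.43% had neither a WT nor a KO mock peak, and 1.40% were shared gains. For comparison, 88.1% of all WT doxorubicin peaks overlapped a KO doxorubicin peak. Of the 1359 WT doxorubicin gains, 231 were shared gains (16.998%, interval 15.04 to 19.1) and 994 were in no other H3K4me3 list. A further 91 overlapped both a KO doxorubicin and a KO mock peak, and 43 overlapped a KO mock peak alone. Seen from the knockout, 8.84% of the KO doxorubicin peaks had no KO mock peak and 4.21% had no mock peak of either genotype. Of the 1335 KO doxorubicin gains, 233 were shared in the same sense (17.5%, interval 15.5 to 19.6). Only 635 of these 1335 were in neither mock list, and all the rest overlapped a WT mock peak. The similar shares of WT and KO gains therefore come from sets of unlike make-up. Among peaks in neither mock list the shares were unlike, since that set was larger in WT. Of the 1225 such WT doxorubicin peaks, 231 were shared gains (18.9%, 16.7 to 21.2). Of the 635 such KO doxorubicin peaks, 233 overlapped a WT doxorubicin peak (36.7%, interval 32.9 to 40.6) and 402 were in no other list. The opposite pattern, a WT mock peak with a KO mock peak and no doxorubicin peak, was found 22 times among 14897 WT mock peaks. In that direction 1.22% of the WT mock peaks, 182 in number, were in neither doxorubicin list. The 22 were 12.1% of these 182 (interval 7.73 to 17.7), beside the 18.9% of WT doxorubicin peaks in neither mock list. Both doxorubicin lists were longer than the mock list of their genotype. When every list was limited to its 14326 highest-scoring peaks, 47 shared gains were left. The opposite pattern is not given under that limit, so the 22 and the 231 come from lists of unequal length.

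The highest-scoring shared gain stood far above the others. It lay at chr3:96077308-96079014 (mm9), was 1707 bp wide and had a score of 1701.1 in WT doxorubicin cells. The KO doxorubicin peak at chr3:96077290-96079069 was 1780 bp wide with a score of 1407.56, and it covered the WT peak completely. The next highest WT doxorubicin score among the shared gains was 361.16. The peak appeared between neighbours that were listed before damage. To its left, the place at chr3:96071872-96074402 had 1 peak in each of 3 lists, WT mock (score 1137.76), WT doxorubicin (2148.76) and KO doxorubicin (1708.02), and 2 shorter peaks in KO mock cells (98.17 and 333). To its right, the WT mock peak at chr3:96081566-96082833 (410.79) had counterparts in KO mock (214.37) and KO doxorubicin (132.52) cells and none in WT doxorubicin cells. The distance from the gain to the nearest mock peak was 2551 bp in WT and 2435 bp in KO cells. A further shared gain, 331 bp wide, lay about 35 kb to the left at chr3:96043403-96043733, with scores of 299.33 in WT and 181.58 in KO doxorubicin cells. No H3K27me3 peak overlapped either place in any condition. The nearest H3K27me3 peak was 5333 bp away in WT mock and 5878 bp in KO mock cells, and 17041 bp and 17428 bp away after doxorubicin. The WT mock peaks at chr3:96084348-96088089 and chr3:96088942-96090671 and the KO mock peaks between 96084893 and 96090228 had no listed counterpart in either doxorubicin library. Farther right the reverse was seen, with peaks at chr3:96103790-96105207 in WT (222.97) and chr3:96103411-96104964 in KO doxorubicin cells (130.85) and none there in either mock library.

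**Figure D1:**
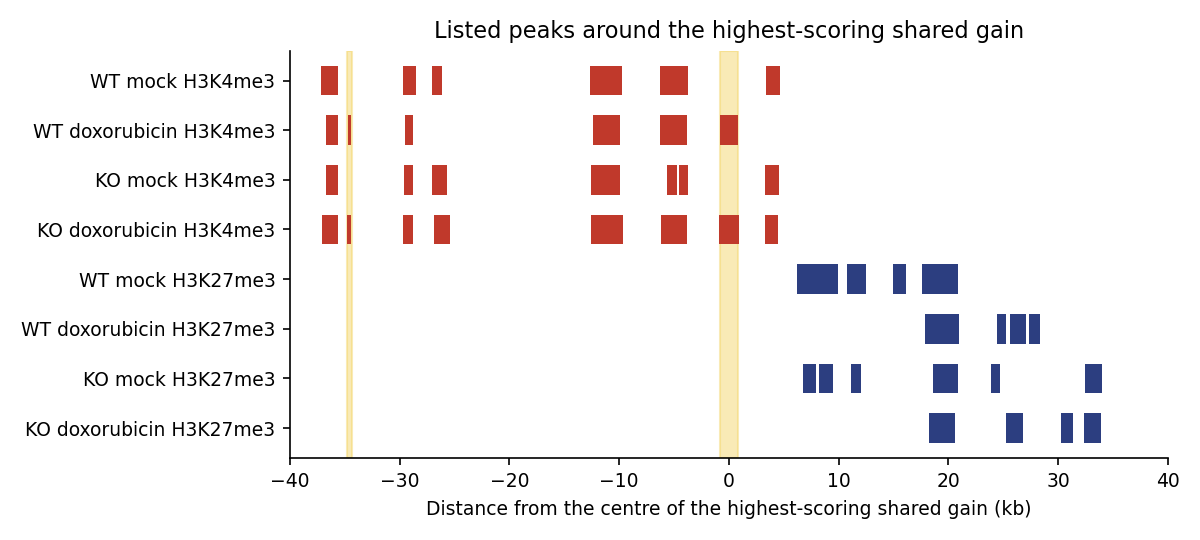
Listed peaks of the 8 libraries within 40 kb of the highest-scoring shared gain on chromosome 3, with distance from its centre in kb on the x axis and 1 library per row (red, H3K4me3; blue, H3K27me3; yellow bands, the 2 shared gains). The central peak and the narrow one about 35 kb to its left are in the 2 doxorubicin H3K4me3 rows and absent from the 2 mock rows.

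The other leading shared gains had far lower scores. Of the 20 highest WT doxorubicin scores among the shared gains (248.33 to 1701.1), 17 belonged to peaks whose KO doxorubicin score was the smaller number. Since these 20 were picked for their WT score, nothing is read from this order. Over all 231 the KO score was the larger number in 125 and the WT score in 106, and the scores come from different libraries. The gain at chr9:48412463-48413746 had a score of 361.16 in WT and 682.99 in KO doxorubicin cells, and its nearest mock peak was 107847 bp away. The gain at chr2:30784592-30785527 had 282.16 and 293.76, and that at chr19:60220424-60221677 had 262.33 and 272.68. These 3, and the strongest gain, were the ones among the 20 with no H3K27me3 in any library and a score above 200 in both doxorubicin lists. The gain at chr2:74565251-74566381 also had 2 scores above 200 (286.43 and 259) and lay at H3K27me3 in WT mock, WT doxorubicin and KO doxorubicin cells.

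Several of the widest and highest-scoring WT peaks overlapped a shorter KO doxorubicin peak with a lower score. These WT peaks were picked for their own width or score, so nothing is read from this order either. The widest shared gain, chr4:41628890-41630862, was 1973 bp wide with a score of 344.13 in WT, and its KO doxorubicin peak was 682 bp wide with a score of 151.49. At chr19:5846016-5847849, 1834 bp wide and 102 bp from a mock peak, the scores were 272.19 and 80.51. At chr10:98666224-98667867, 1644 bp wide, they were 267.64 and 127.95. The fifth widest, chr17:57418342-57419840, was 1499 bp wide in WT and 687 bp in KO cells, with 240.46 and 138.08, and lay at H3K27me3 in both WT libraries. At chrX:158346043-158347335 they were 324.63 and 96.14. The gain at chr17:50609137-50610258 (262.05) was covered to 98.9% by 2 KO doxorubicin peaks, the higher of which scored 95. At chr1:148344296-148345675 they were 330.96 and 125.45, and this peak was the most isolated of all, 2491935 bp from the nearest WT mock and 2492220 bp from the nearest KO mock peak. The remaining leading gains lay at chr11:74423896-74424825 (325.92 and 118.6), chr11:69761199-69762574 (302.38 and 118.08), chr6:86534651-86535417 (292.84 and 137.7) and chr19:42826327-42827599 (288.36 and 192.1). The last of the 20 were chr12:77518293-77519216 (273.86 and 120.59), chr5:138712929-138714275 (259.17 and 189.11), chr10:43725342-43726487 (257.98 and 132.04) and chr17:87929991-87931140 (248.33 and 157.95). In each pair the WT doxorubicin score stands first.

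Over the whole group, shared gains were weak and narrow peaks. Their WT doxorubicin scores ran from 80.07 to 1701.1 with a median of 119 (interval 113 to 129), and 66 of the 231 (28.6%) scored below 100. Their median rank was the 6.54th percentile of the WT doxorubicin list, and 31 scored above 200. One of them, the gain on chromosome 3, was in the upper 50% of the list. The KO doxorubicin peaks at these places had a median score of 126 (interval 119 to 134) and a median rank at the 6.60th percentile of their own list. The median width was 799 bp (interval 766 to 843) against 1734 bp for all WT doxorubicin peaks, whose median score was 1526. At like scores the widths were near those of WT doxorubicin peaks with a mock peak. These were 616 and 660 bp from 80 to 100, and 805 and 781 bp from 100 to 150. They were 876 and 886 bp from 150 to 200, and 1126.5 and 997 bp from 200 to 300. Among the shared gains width went with score (Spearman rho 0.58 over 231 peaks of 1 library). Gains of the WT doxorubicin list only had nearly the same median score (120) and width (811 bp), and gains of the KO doxorubicin list only had 106 and 708 bp.

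The KO peak usually covered most of the WT peak, while the scores of the 2 lists were only loosely ordered alike. In 227 of the 231 cases a single KO doxorubicin peak overlapped the WT peak, and in 4 cases 2 did, of which the higher score is given. The KO peaks covered a median of 85.3% of the WT peak (interval 81.8 to 87.5), with 49 WT peaks covered whole and 210 covered by at least 50%. In 11 cases, however, the KO peak was a long one that also overlapped a mock H3K4me3 peak. There the WT peak, 508 to 1278 bp wide with scores of 82.91 to 178.86, lay 6 to 591 bp beside a mock peak, and the KO peak was 1800 to 6088 bp wide with scores of 392.58 to 3100. The highest KO scores belonged to such pairs, at chr14:46146353-46147012, chr16:55817712-55818376, chr19:5910140-5910695, chr3:144235240-144236175 and chr4:155268513-155269381, each with a KO score of 3100. The score of 3100 is a common upper value in these lists. At chr19:5910140-5910695 the KO peak covered 1.08% of the WT peak. A sixth pair with that KO score, chr9:58429425-58429932, lay 6 bp from a WT mock peak and 31 bp from a KO mock peak.

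The other 220 shared gains had KO peaks clear of every mock peak. Their median scores were 120 in WT and 123 in KO doxorubicin cells, and in 140 of them the 2 scores were within 1.5 times of each other. The WT score was more than 2 times the KO score in 19 and less than 0.5 times in 13. Over these 220 peaks the 2 scores had a Spearman rho of 0.21 and the 2 widths one of 0.45, given as a description of a group cut off at a score of 80 in both lists. Both scores exceeded 200 in 6 of the 220 and both fell below 100 in 23.

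**Figure D2:**
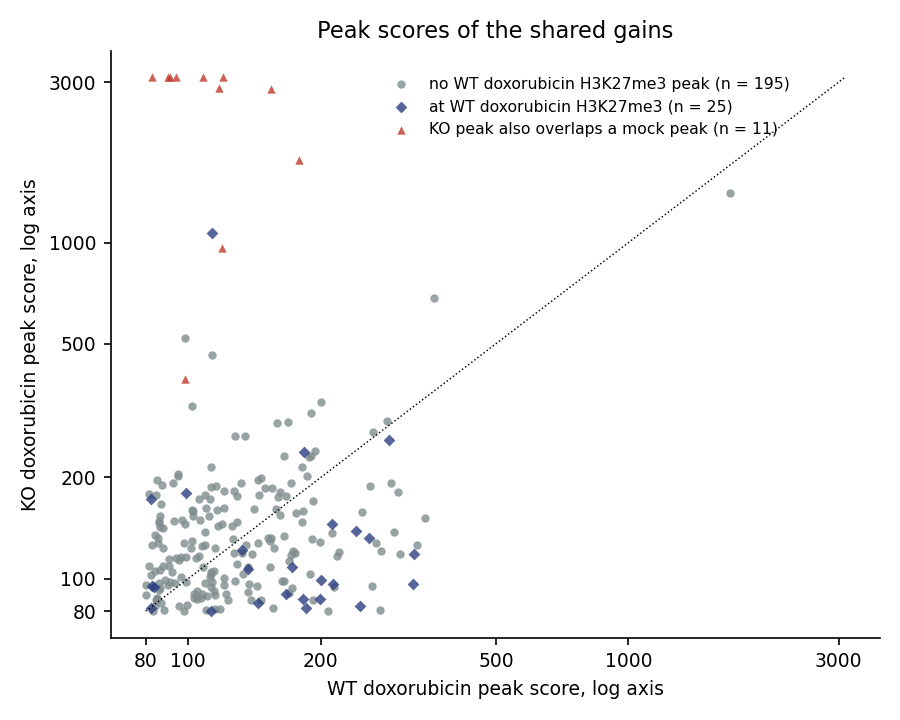
Score of each shared gain in WT doxorubicin cells (x axis) and of the KO doxorubicin peak at the same place (y axis), both on log axes, 1 point per gain and the line of equal scores dotted. Most points lie below 200 on both axes, 1 gain stands at 1701.1 and 1407.56, the 25 diamonds are those at WT doxorubicin H3K27me3, and the 11 triangles, all above the line with KO scores of 392.58 to 3100, are those whose KO peak also overlaps a mock peak.

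The rule left shared gains at any distance from a listed mock peak, and they lay both beside such peaks and far from them. The nearest mock H3K4me3 peak of either genotype was at a median distance of 19348 bp (interval 12723 to 23648), with 6 bp and 2491935 bp as the extremes. It was under 1 kb away for 25 of the 231 (10.8%, interval 7.13 to 15.6), under 10 kb for 87 (37.7%, 31.4 to 44.3) and 100 kb or more for 33. For scale, the nearest WT mock peak was at a median of 19837 bp from a shared gain, and WT mock peaks had their own nearest WT mock neighbour at 28179 bp. These are unlike measures, since a place inside a gap is always nearer to a flank than the flanks are to each other. Nothing is read from their order. Gains of the WT doxorubicin list only were within 1 kb of a mock peak in 16.2% (13.96 to 18.6) and within 10 kb in 45.8% (42.6 to 48.9), with a median of 12981 bp. Gains of the KO doxorubicin list only were within 1 kb in 9.70% (6.99 to 13.02) and within 10 kb in 31.8% (27.3 to 36.6), with a median of 24441 bp. The difference between these groups was not tested. The nearest mock peak belonged to the WT list for 190 shared gains and to the KO list for 41, and the WT mock peaks were also wider, with medians of 2029 bp and 1723.5 bp.

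The 25 shared gains within 1 kb of a mock peak sat mostly beside strong, wide ones. The mock peak next to them had a median score of 1761 (82.03 to 3100) and a median width of 2570 bp, while the gains had a median score of 110. All 11 gains whose KO peak reached a mock peak were among them. Besides those, the nearest were chr1:88337235-88338102, 40 bp from a KO mock peak with scores of 97.82 in WT and 128 in KO doxorubicin cells, and chr10:62111290-62112170, 43 bp from a WT mock peak with 181.22 and 214.08. At the other end, after the peak on chromosome 1, the most isolated were chr14:4213298-4213998 at 744297 bp, chr10:109340323-109341185 at 550758 bp, chr3:67860465-67861088 at 410820 bp and chr9:89105242-89105843 at 350892 bp. Their WT doxorubicin scores were 95.44, 126.77, 112.69 and 106.33, and their KO doxorubicin scores 113.85, 182.14, 103.4 and 149.13.

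**Figure D3:**
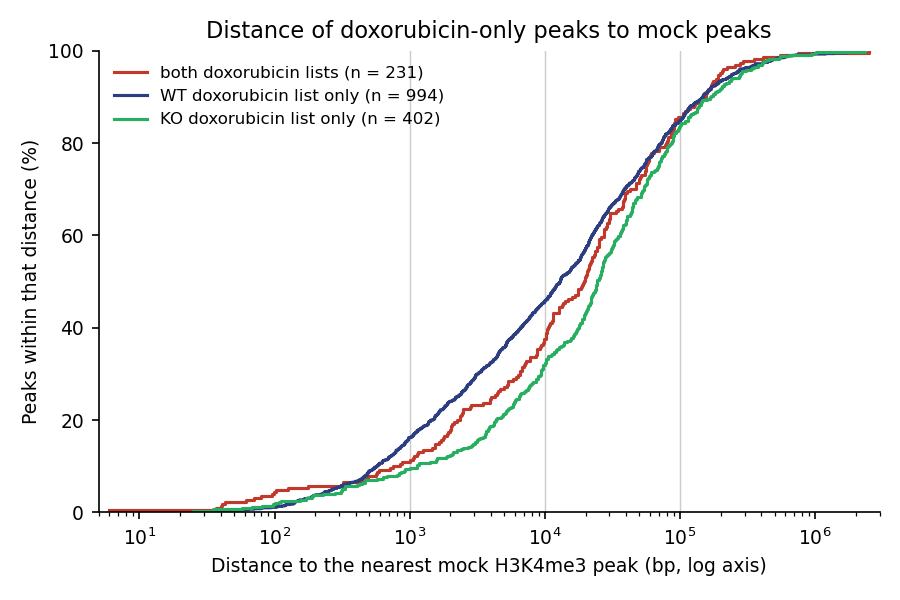
Cumulative share of peaks (y axis, %) whose nearest mock H3K4me3 peak lies within the distance on the log x axis (bp), for shared gains (n = 231), gains of the WT doxorubicin list only (n = 994) and gains of the KO doxorubicin list only (n = 402). At 10 kb the 3 curves stand at 37.7%, 45.8% and 31.8%, and at 100 kb they have come together between 83.8% and 85.7%.

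Shared gains were at H3K27me3 about as often as H3K4me3 peaks in general or somewhat less, and at a lower share than gains of the WT doxorubicin list only, a difference that was not tested. In WT doxorubicin cells 25 of the 231 overlapped an H3K27me3 peak (10.8%, interval 7.13 to 15.6), against 16.3% of all WT doxorubicin and 10.9% of all KO doxorubicin H3K4me3 peaks. Of the 994 gains of the WT doxorubicin list only, 447 did (44.97%, interval 41.8 to 48.1), and of the 402 gains of the KO doxorubicin list only, 19 overlapped KO doxorubicin H3K27me3 (4.73%, 2.87 to 7.28). The share for shared gains was 12.99% with WT mock, 11.7% with KO mock and 11.7% with KO doxorubicin H3K27me3. For all WT doxorubicin peaks these were 17.6%, 17.8% and 17.3%, and for all KO doxorubicin peaks 12.4%, 12.6% and 12.02%. In all, 191 of the 231 (82.7%, interval 77.2 to 87.3) had no listed H3K27me3 peak in any of the 4 libraries, near the 79.99% of all WT doxorubicin peaks. No list holds a score under 80, so an unlisted peak is not shown to be a lack of the mark. A listed H3K27me3 peak in each library was found at 15 (6.49%, 3.68 to 10.5) and at 14.5% of all WT doxorubicin peaks. Where no peak of WT doxorubicin H3K27me3 overlapped, the nearest was at a median of 71447.5 bp.

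The difference between shared and WT-only gains was also there at like scores, though it was not tested. Among WT doxorubicin peaks scoring 80 to 100, 7.58% of the shared gains and 31.3% of the WT-only gains were at H3K27me3. From 100 to 150 these were 5.75% and 41.2%, from 150 to 200 12.8% and 55.9%, and from 200 to 300 29.2% and 70.8%. WT doxorubicin peaks with a mock peak had 9.39%, 16.1%, 22.7% and 27.1% in the same bands. The last band held 24 shared gains, with an interval of 12.6 to 51.1%. With equal numbers of top peaks per list the shares were 21.3% of 47 shared and 70.4% of 257 WT-only gains. WT gains that overlapped both a KO doxorubicin and a KO mock peak had WT doxorubicin H3K27me3 in 14 of 91 (15.4%, interval 8.67 to 24.5). Those that overlapped a KO mock peak alone had it in 22 of 43 (51.2%, 35.5 to 66.7). A low share was thus also seen in other WT gains that overlapped a KO doxorubicin peak, and was not particular to shared gains.

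**Figure D4:**
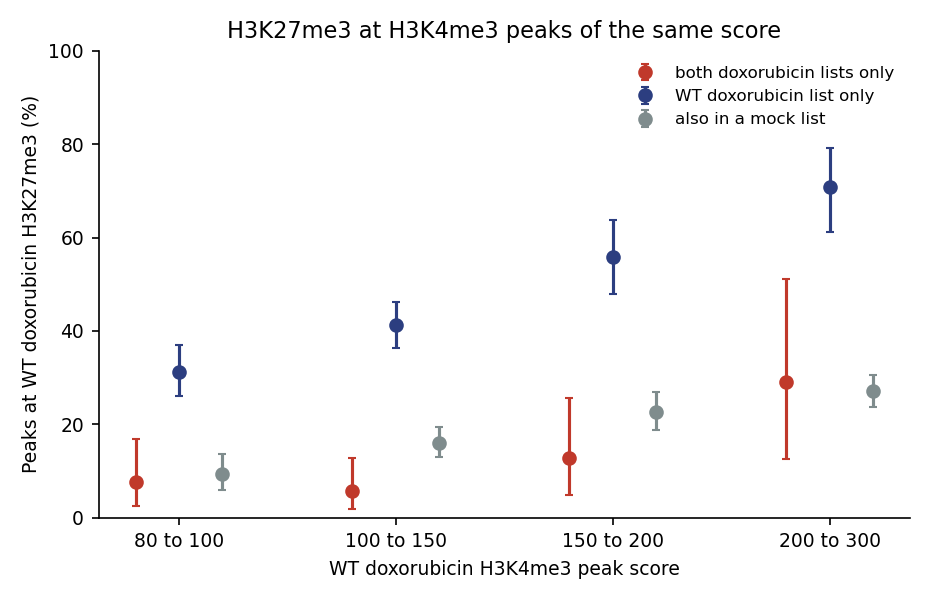
Share of WT doxorubicin H3K4me3 peaks that overlap a WT doxorubicin H3K27me3 peak (y axis, %), by score band of the H3K4me3 peak (x axis), with 95% Clopper-Pearson intervals as bars. In each band the shared gains (red) lie below the gains of the WT doxorubicin list only (blue), for example 5.75% and 41.2% between 100 and 150, and their intervals overlap those of peaks also in a mock list (grey) except from 100 to 150.

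Put the other way, WT gains were split by H3K27me3 and looked up in the KO list. Of 753 WT doxorubicin peaks in neither mock list and without WT doxorubicin H3K27me3, 206 were also in the KO doxorubicin list (27.4%, interval 24.2 to 30.7). Of 472 with H3K27me3, 25 were (5.30%, 3.46 to 7.72). Starting from the KO list, the share was the higher one at H3K27me3. Of 49 KO doxorubicin peaks in neither mock list at KO doxorubicin H3K27me3, 30 were also in the WT doxorubicin list (61.2%, 46.2 to 74.8), and of 586 without it 203 were (34.6%, 30.8 to 38.6). WT and KO libraries are not replicates of each other, and these differences were not tested.

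H3K27me3 itself was listed at similar numbers of shared gains before and after damage. In WT cells 22 shared gains had it in both the mock and the doxorubicin list, 8 in mock alone and 3 in doxorubicin alone. In KO cells these were 20, 7 and 7. The H3K27me3 peaks overlapping shared gains had median scores of 309 before and 289 after damage in WT cells, and 278 and 276 in KO cells. These medians rest on 25 to 30 gains, with the highest-scoring H3K27me3 peak taken at each. The medians of the whole lists, 141 to 155, are therefore not a like measure, and no value for other H3K4me3 peaks is given here. The 15 shared gains with H3K27me3 in all 4 libraries lay 1885 to 64529 bp from the nearest mock H3K4me3 peak.

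The highest-scoring of these 15 bivalent gains was chr11:74423896-74424825, named above. The H3K27me3 peak over it had scores of 857.36 before and 1199.86 after damage in WT cells, and 1183.33 and 1589.7 in KO cells. The next, chr7:52437375-52438283, had H3K4me3 scores of 245.58 in WT and 82.82 in KO doxorubicin cells. It lay at the strongest H3K27me3 of the 5, with 1499.66, 3100, 1781.44 and 2762.23 in the order given. Then came chr2:29602557-29603323 (213.17 and 96.63), chr5:113752932-113753660 (199.53 and 87.05) and chr18:36092542-36093607 (185.11 and 81.84). In all 5 the KO doxorubicin H3K4me3 score was below 120, and in 4 of them below 100. Since these 5 were picked for their WT score, nothing is read from this order. Over all 15 the median H3K4me3 score was 144 in WT and 94.9 in KO doxorubicin cells, a difference that was not tested. The bivalent gain at chr15:102802619-102803775, singled out after its values were seen, had 112.98 in WT and 1067.19 in KO doxorubicin cells.

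The numbering of peaks in the mock lists was also looked at, and what it stands for is not known. Every list numbers its peaks in genomic order, with none out of order in any of the 8, and skips some numbers. No header states why. Of the numbers, 6.83% were missing in the WT mock and 9.56% in the KO mock H3K4me3 list. In the H3K27me3 lists more were missing, from 39.0% (WT mock) to 47.2% (KO mock). Suppose that skipped numbers were peaks scored under 80. A number missing between the mock peaks listed on either side of a shared gain then means at least 1 more peak called there. For 230 of the shared gains both flanks were listed. A number was missing in the WT mock list for 126 of them (54.8%, interval 48.1 to 61.3) and in the KO mock list for 115 (50%, 43.4 to 56.6). Among all gaps between neighbouring peaks these shares were 6.78% and 9.44%.

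Shared gains had a larger share than all gaps of the list at every gap length. Below 10 kb their shares rest on 16 places in the WT mock and 12 in the KO mock list. In gaps of 10 to 50 kb a number was missing in the WT mock list for 52.8% of the shared gains and in 4.52% of all such gaps, and in the KO mock list for 48% and 6.51%. In gaps over 200 kb the shares were 61% and 14.2% in the WT mock list and 57.8% and 18.7% in the KO mock list. For gains of the WT doxorubicin list only they were 41.1% in the WT mock and 27.3% in the KO mock list over all gap lengths. Gains of the KO doxorubicin list only had 34.8% and 33.8%. Shares above those of all gaps were thus not particular to shared gains. A number was missing in both mock lists for 67 shared gains, in the WT list alone for 59 and in the KO list alone for 48. Whether a skipped number stands for a peak, and whether such a peak lay at the gain itself, cannot be read from the lists.

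**Figure D5:**
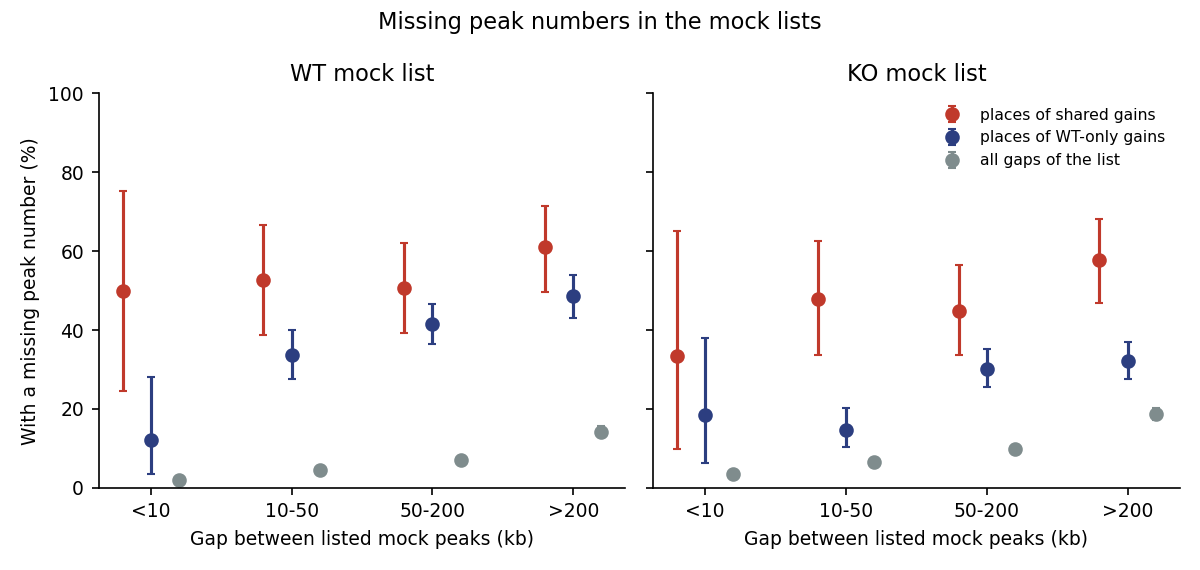
Share with at least 1 missing peak number between the flanking listed mock peaks (y axis, %), by length of that gap (x axis, kb), in the WT mock and the KO mock H3K4me3 list, with 95% Clopper-Pearson intervals. The places of shared gains (red), of WT-only gains (blue) and all gaps of the list (grey) are shown, and from 10 to 50 kb in the WT mock list they stand at 52.8%, 33.6% and 4.52%.

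No number was missing in either mock list for 56 shared gains (24.2%, interval 18.9 to 30.3). The strongest gain on chromosome 3 was one of them, since its mock neighbours carry consecutive numbers in both lists, and it was the sole one among the 20 highest WT scores. Of the 56, 46 lay at least 1 kb from a mock peak with a KO peak clear of mock peaks, and 18 of those 46 scored at least 100 in both doxorubicin lists. After the gain on chromosome 3 the highest by their lower score were chr5:66115512-66116399 (170.96 in WT and 192.81 in KO doxorubicin cells), chr15:97612389-97613380 (158.32 and 161.2) and chr3:151769425-151770836 (144.71 and 177.43). These 3 were named after their values were seen. Of the 46, 4 lay at WT doxorubicin H3K27me3.

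Values near the limits of the rule show how narrow the choice is. The shared gains just inside by score were chr10:55826567-55827089 (80.07 in WT and 95.95 in KO doxorubicin cells) and chr5:75538966-75539486 (80.29 and 89.14). Just outside by overlap was chr5:74593051-74593876, which shared 3 bp with a mock peak and had a WT doxorubicin score of 97.53, and chr1:183947208-183948000, which shared 7 bp and had 128.33. Just outside by mock score were chr4:97988361-97989249 (WT doxorubicin 248.91), whose mock peak scored 80.25, and chr19:11367450-11368020 (83.53), whose mock peak scored 80.72. Of the 14279 peaks in both doxorubicin lists with a mock peak, 115 had a highest mock score below 100.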

How the data were processed

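H3K4me3 and H3K27me3 were measured by ChIP-seq in 4 conditions, 1 library each. The submitters' processing notes list Bowtie 0.12.7 and MACS 1.4.2 as tools and mm9 as the build. The authors deposited 1 peak list per library, whose score is, per the file headers, the negative log10 of the peak's p-value times 10. No list holds a score under 80. Filters other than this are not given in the sources used here.

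From these lists, overlaps (at least 1 bp), distances between peak edges, score ranks, widths and missing peak numbers were computed with Python 3.11.15, numpy 2.4.6, pandas 2.3.3 and scipy 1.17.1, and figures with matplotlib 3.10.9. Starts were taken to count from 0 and are printed counting from 1. Overlap, distance, joining and numbering functions were tested on simulated peaks. No test between conditions was possible with 1 library each. Named regions are the 20 highest WT and 5 highest KO scores, the 5 widest, 5 farthest, 5 nearest, 5 highest at H3K27me3 in all 4 libraries, and those at the limits of the rule. The group and these rules were chosen with earlier results of these data known, and the use of missing peak numbers and of KO peaks that reach mock peaks was added after the data were seen. No annotation or genome of mm9 was used here, so no gene names, gene lists, cell type markers or sequences are given, and the cell type was not checked. Peaks at repeats or artefact-prone places were not removed.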

Additional observations from a re-analysis of the deposited data

How the results depend on the processing

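The 6 main results were recomputed under the alternatives. With a score of at least 100 in every list, the median score of the shared gains was 149 and the median width 864.5 bp. With that minimum in the doxorubicin lists alone, 121 shared gains were left (12.4% of the WT gains), with a median score of 149 and width of 876 bp. With the 14326 highest-scoring peaks of each list there were 47 (12.3% of the WT gains), with medians of 262 for score, 1145 bp for width and 25882 bp for distance to a mock peak, and 21.3% at WT doxorubicin H3K27me3. These settings remove low scores by construction. Taken from the KO doxorubicin list the median width was 748 bp, and as regions joined over the 4 lists 909.5 bp. H3K27me3 in all 4 lists was found at 6.49%. Without gains that had a missing mock peak number, an alternative chosen after seeing the data, 56 were left with a median score of 112. They were 4.12% of all 1359 WT gains, a total that was not filtered for missing numbers, so a lower share was built in. With the same filter 437 WT-only gains were left. In the remaining combinations counts were within 1.5 times of the reported one and other values within their intervals. Under the 7 settings in which both were computed, shared gains were at WT doxorubicin H3K27me3 in 7.14 to 21.3% and WT-only gains in 42.6 to 70.4%. No paired analysis was possible because each mark and condition has 1 library. Read depth, which the lists do not give, limits every comparison of presence near the score floor.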

Other observations

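Shared gains were mostly single places spread over the genome. The nearest other shared gain was at a median of 1607275 bp, and 21 of the 231 lay within 100 kb of another, in 10 groups. The sole group of 3 was on chromosome 7 within chr7:52417404-52533107 and included the bivalent gain at chr7:52437375-52438283. The pair on chromosome 3 around the strongest gain spanned 35612 bp, and a pair on chromosome 19 spanned chr19:5846016-5910695. At chr13:37945792-37947042 and chr8:32142162-32144087 the pairs spanned 1251 bp and 1926 bp. Among the numbered chromosomes and X, shared gains made up from 0.709% of the WT doxorubicin list on chromosome 13 (5 of 705, interval 0.231 to 1.65) to 2.13% on chromosome 19 (12 of 563, 1.11 to 3.69), intervals that overlap. Chromosome 11 held the most, 23 of 1361 peaks.

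The 22 peaks in both mock lists and neither doxorubicin list were also weak. Their WT mock scores ran from 80.4 to 203.85 with a median of 120, and their median width was 934 bp. WT mock H3K27me3 overlapped 4 of the 22 (18.2%, interval 5.19 to 40.3), and WT doxorubicin H3K27me3 overlapped 3.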
